A study of Mus musculus with 8 samples.

Results

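Endothelial cells are held to each other by adhesion molecules at their borders and meet circulating leukocytes through others on their luminal face. The 10 genes described here encode such molecules: the junction proteins Pecam1 (CD31), Cdh5 (VE-cadherin) and Esam, the immunoglobulin-type ligands of leukocyte integrins Icam1, Icam2 and Vcam1, the sialomucins Emcn (endomucin) and Cd34, the secreted matrix protein Egfl7 and the lectin-like receptor Cd93. They were chosen by name, with earlier results of these data known, from a table of 27179 genes. The paper had already named Cdh5 and Pecam1 as higher in the QZ1-hi population described below. All 10 were among the 15583 genes with enough counts to be tested. Cdh5 and Pecam1 are defining markers of endothelium, whereas Icam1 is also abundant on alveolar type 1 cells, Vcam1 and Cd34 on some fibroblasts, and Pecam1, Icam2 and Esam on platelets. In endothelium, Icam1 and Vcam1 are known for their induction by inflammatory cytokines through NF-kB, while Icam2 is present without such a stimulus.

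RNA came from lungs of female C57BL/6J mice (C57BL/6 in the labels) with Eml4-Alk tumors, in which intratracheal adenovirus carrying Cas9 and guide RNAs joins Eml4 and Alk in infected lung cells. The animals were 18 to 22 weeks old, at 11 to 12 weeks after tumor induction, and all had received 4.5 nmol of QZ1 intravenously, a quenched Cy5 probe that fluoresces once proteases cleave its linker. Live cells without surface CD45 and CD11b were sorted by QZ1 signal set against EpCAM, with at least 100000 cells collected per population, and 4 libraries of the QZ1-hi population (QZ+ in the labels) were compared with 4 of the QZ1-lo population (QZ-). No untreated or tumor-free lung was part of this comparison, so QZ1-lo cells come from the same sort and are not a control tissue. The paper set the QZ1-hi and QZ1-lo gates apart in Cy5 signal, so cells between the gates were in neither population. Neither pooling of animals nor the mouse behind each library is stated, and p-values therefore measure the spread between these libraries. Library numbers in the sample titles run in neighboring pairs of a QZ1-hi and a QZ1-lo library, which carry the same replicate number here. An added fit took these pairs as a replicate block, a pairing that the labels do not state, and its values stand beside results whose call it changed.

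Levels are given as CPM, the counts of a gene relative to the TMM-scaled library total. Differences are log2 fold changes, positive where QZ1-hi was higher, with their standard error (SE). They come from the quasi-likelihood test of edgeR, with Benjamini-Hochberg adjusted p-values over all genes tested. Total counts per library ranged from 18380918 to 26847938, and a floor of 3 counts corresponded to between 0.0894 and 0.179 CPM, which covers counting error only. Mitochondrial transcripts and ribosomal RNA took 43.7 to 65.6% of the counts in QZ1-hi and 34.0 to 53.2% in QZ1-lo. With those genes removed, the median log2 fold change of the 10 genes was 3.12 against 3.13 with them, and all 10 kept their call. The endothelial label was checked on 12 markers outside the set (Vwf, Tek, Tie1, Kdr, Eng, Cldn5, Erg, Sox17, Ramp2, Calcrl, Clec14a and Robo4). Of these, the paper had already named Vwf, Tek and Eng as higher in QZ1-hi. Among genes of other lists given below, it had also named Cd248, Pdgfrb, Des and Flt4. All 12 endothelial markers were higher in QZ1-hi, with a median log2 fold change of 3.43, and their mean log2 CPM was 5.88 to 7.05 in QZ1-hi and 2.03 to 4.06 in QZ1-lo. In bulk RNA, fewer cells of a type and less RNA per cell cannot be told apart.

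Of the 10 junction and adhesion genes, 9 were higher and 1, Icam1, was lower in the QZ1-hi population, called where edgeR's adjusted p was below 0.05. Among all genes tested, 9.88% were called higher and 8.21% lower. DESeq2 and limma also called 9 of the 10 genes higher, where they called 10.4% and 10.9% of all genes they tested higher. A log2 fold change over 2 together with a higher call was found for 7 of the 10 genes and for 4.32% of genes tested. The median log2 fold change of the 10 genes was 3.13, beside 0.02 for all genes tested. None of the 10 genes overlapped between the populations in CPM, where 11.9% of genes tested had every QZ1-hi library above every QZ1-lo library and 10.7% the reverse. With library size only in place of TMM, the share of calls that were higher went from 54.6% to 26% over all genes, the median of all genes moved to -0.44 and that of the 10 genes to 2.71, and again 9 of the 10 genes were called higher.

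**Figure D1:**
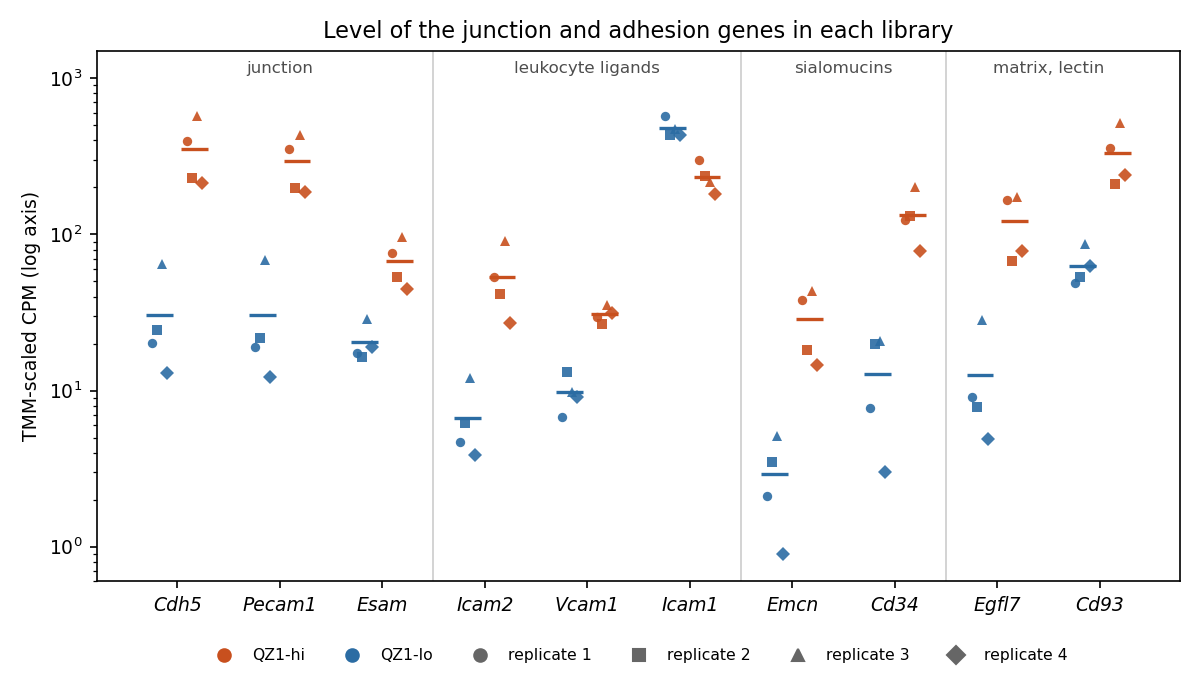
TMM-scaled CPM (log axis) of the 10 genes in each of the 4 QZ1-hi (orange) and 4 QZ1-lo (blue) libraries, with a bar at the group mean and a symbol for each replicate number. Every gene but Icam1 lies higher in QZ1-hi, and Icam1 lies higher in QZ1-lo, at 435 to 571 CPM.

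Of the junction genes, Cdh5 (Entrez Gene 12562, chr8:104101625-104144511, plus strand of GRCm38) encodes the cadherin of endothelial adherens junctions. It was at 395, 230, 575 and 213 CPM in QZ1-hi replicates 1 to 4 and at 20.1, 24.6, 64.2 and 12.9 CPM in QZ1-lo replicates 1 to 4. The lowest QZ1-hi library was thus well above the highest QZ1-lo library, and the log2 fold change was 3.54 ± 0.50 (SE, edgeR adjusted p = 0.000837), an 11.6-fold difference. Pecam1 (Entrez Gene 18613, chr11:106654217-106750628, minus strand), which bridges neighboring endothelial cells and also marks platelets and leukocytes, was at 354, 199, 435 and 187 CPM in QZ1-hi and at 19.1, 21.7, 68.9 and 12.2 CPM in QZ1-lo. The order of the libraries within each population was that of Cdh5, with QZ1-hi replicate 3 and QZ1-lo replicate 3 highest. The log2 fold change of Pecam1 was 3.27 ± 0.52 (SE, edgeR adjusted p = 0.00137). Without QZ1-lo replicate 3, the log2 fold changes of Cdh5 and Pecam1 were 4.20 and 4.05.

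Esam (Entrez Gene 69524, chr9:37528078-37538319, plus strand), an immunoglobulin-type protein of endothelial tight junctions, was higher in QZ1-hi by a smaller factor than Cdh5 and Pecam1, a difference between genes that was not tested on this scale. It was at 76.4, 53.7, 96.1 and 44.6 CPM in QZ1-hi and at 17.4, 16.5, 28.8 and 19.1 CPM in QZ1-lo. The populations did not overlap, and the log2 fold change was 1.73 ± 0.26 (SE, edgeR adjusted p = 0.000998), a 3.31-fold difference. Of the platelet genes measured beside it, Itga2b, Pf4 and Ppbp were called higher and Gp9 was not, whereas the red cell genes Hba-a1, Hbb-bs and Alas2 had log2 fold changes of -1.63 (SE 0.66), -1.61 (SE 0.70) and -1.49 (SE 0.72) that did not pass the test. With the replicate block these 3 genes were called lower, at -1.51 (SE 0.12), -1.48 (SE 0.17) and -1.37 (SE 0.12), and QZ1-hi was below its neighboring QZ1-lo library in 4 of 4 pairs for each. Their part in the Esam and Pecam1 values was not tested.

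The 3 leukocyte integrin ligands differed in direction. Icam2 (Entrez Gene 15896, chr11:106377656-106388075, minus strand), a ligand of LFA-1 on resting endothelium, was at 53.4, 41.6, 90.2 and 26.9 CPM in QZ1-hi and at 4.65, 6.18, 12.1 and 3.89 CPM in QZ1-lo. Its log2 fold change of 2.98 ± 0.42 (SE, edgeR adjusted p = 0.000816) is a 7.92-fold difference, with no overlap of the populations. Vcam1 (Entrez Gene 22329, chr3:116109949-116129688, minus strand), the ligand of the integrin VLA-4, was at 29.8, 26.9, 35.6 and 31.2 CPM in QZ1-hi and at 6.77, 13.2, 9.84 and 9.13 CPM in QZ1-lo. Of the 10 genes, Vcam1 varied least among QZ1-hi libraries, with an SD of 11.7% of the mean, where Cdh5 had 47.8%. Its log2 fold change was 1.66 ± 0.20 (SE, edgeR adjusted p = 0.000423).

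Icam1 (Entrez Gene 15894, chr9:21015985-21028817, plus strand), the cytokine-inducible ligand of LFA-1 and Mac-1, was at 299, 238, 217 and 181 CPM in QZ1-hi and at 571, 436, 471 and 435 CPM in QZ1-lo. Every QZ1-lo library exceeded every QZ1-hi library, and the log2 fold change was -1.03 ± 0.16 (SE, edgeR adjusted p = 0.00141), so that Icam1 was 2.05-fold lower in QZ1-hi. Over 18 alternatives, its log2 fold change stayed between -1.47 and -0.90 and was called each time. Exons of Icam1 overlap a gene model on the opposite strand, Gm47079, as do those of Vcam1 (Gm43109) and Cd34 (Gm16897), and the strand setting of the counting is not stated. The neighboring family members Icam4 and Icam5 had mean levels of 0.448 to 1.11 CPM and did not pass the test (log2 fold change -1.06, SE 1.02, for Icam4 and -0.91, SE 0.61, for Icam5).

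Most epithelial markers moved in the direction of Icam1. Of 12 epithelial markers, 9 were lower in QZ1-hi (Epcam, Cdh1, Krt8, Krt18, Krt19, Ager, Hopx, Scgb1a1 and Foxj1). Sftpc, a marker of alveolar type 2 cells, was higher (log2 fold change 0.78, SE 0.21). Sftpb, of the same cells, and Lamp3 were not called, at 0.39 (SE 0.23) and 0.39 (SE 0.15). Lamp3 was called higher with the replicate block (log2 fold change 0.38, SE 0.10). The median log2 fold change of the 12 markers was -1.22, and their mean log2 CPM was 7.31 to 7.86 in QZ1-hi and 8.33 to 8.81 in QZ1-lo. Ager, a marker of alveolar type 1 cells, averaged 259 CPM (SD 66.0) over the 4 QZ1-hi libraries and 439.7 CPM (SD 57.3) over the 4 QZ1-lo libraries. This was a log2 fold change of -0.76 ± 0.18 (SE, edgeR adjusted p = 0.0120). The sort plotted QZ1 signal against EpCAM, but for this step the paper states cuts in Cy5 signal only. The part of epithelial RNA in the Icam1 value was not tested. Leukocyte markers were present in both populations despite the gate, with Ptprc at 71.4 to 222 CPM in QZ1-hi and 93.4 to 161 CPM in QZ1-lo. None of the 9 leukocyte markers (Ptprc, Itgam, Cd68, Lyz2, Cd3e, Cd79a, Csf1r, S100a8 and Adgre1) passed the test in edgeR without pairing, and their mean log2 CPM was 4.87 to 5.69 in QZ1-hi and 4.78 to 5.37 in QZ1-lo. With the replicate block, the macrophage genes Csf1r (log2 fold change 0.55, SE 0.11), Lyz2 (0.49, SE 0.09) and Cd68 (0.37, SE 0.11) were called higher in QZ1-hi, and their part in the values of the 10 genes was not tested.

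**Figure D2:**
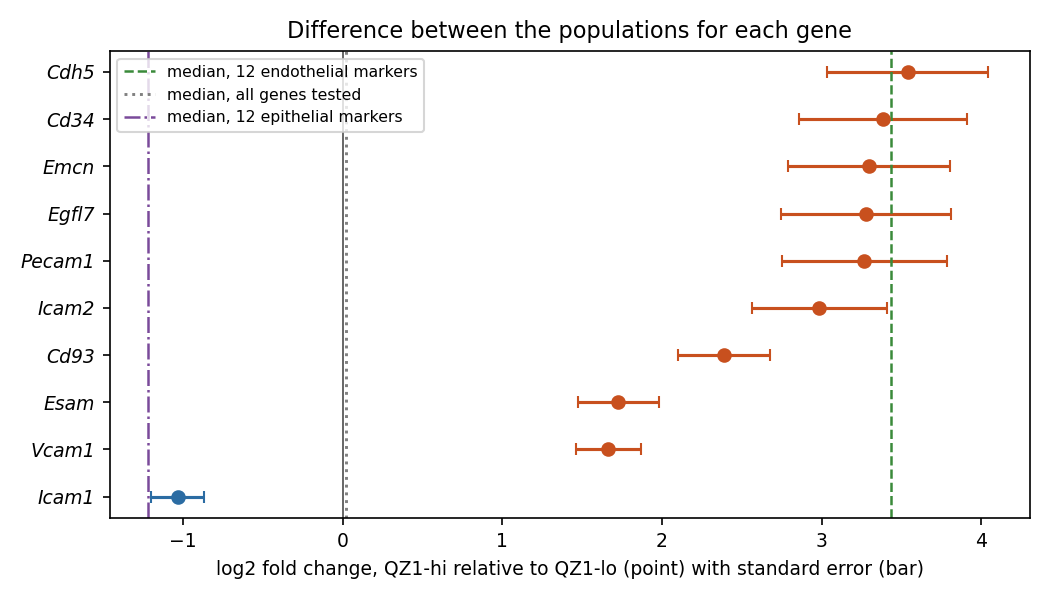
Log2 fold change of each of the 10 genes (point) with its SE (bar), ordered by size, beside the medians of all genes tested, of 12 endothelial markers and of 12 epithelial markers. Esam (1.73) and Vcam1 (1.66) lie below the 6 genes at 2.98 to 3.54, and Icam1 (-1.03) is the only gene of the 10 below 0.

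Promoter sequences of 4 of the 10 genes were at hand (RefSeq, GRCm38.p6, 250 bases before to 50 after the annotated start), and those of Icam1, Emcn and Cd34 are shown to set the gene that fell beside 2 that rose. Capitals mark matches on either strand to an NF-kB site with the letters GGAAATTCC, to the core promoter element TATAAA, and to CCGGAA or AGGAAG, which hold the core bound by ETS factors. The Icam1 window is chr9:21015690-21015989, that of Emcn chr3:137340828-137341127 and that of Cd34 chr1:194938571-194938870, all on the plus strand.
Icam1: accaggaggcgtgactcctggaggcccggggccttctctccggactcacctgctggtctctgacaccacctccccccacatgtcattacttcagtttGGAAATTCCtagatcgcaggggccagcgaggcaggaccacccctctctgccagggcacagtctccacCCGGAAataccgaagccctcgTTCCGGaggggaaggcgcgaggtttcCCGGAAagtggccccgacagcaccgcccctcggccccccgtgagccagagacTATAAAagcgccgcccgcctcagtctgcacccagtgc
Emcn: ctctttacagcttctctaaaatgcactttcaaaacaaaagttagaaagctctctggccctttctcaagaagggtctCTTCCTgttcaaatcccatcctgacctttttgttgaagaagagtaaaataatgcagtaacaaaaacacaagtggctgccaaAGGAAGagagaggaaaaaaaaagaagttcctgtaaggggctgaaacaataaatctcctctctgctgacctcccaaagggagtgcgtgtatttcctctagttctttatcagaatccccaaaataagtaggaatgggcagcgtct
Cd34: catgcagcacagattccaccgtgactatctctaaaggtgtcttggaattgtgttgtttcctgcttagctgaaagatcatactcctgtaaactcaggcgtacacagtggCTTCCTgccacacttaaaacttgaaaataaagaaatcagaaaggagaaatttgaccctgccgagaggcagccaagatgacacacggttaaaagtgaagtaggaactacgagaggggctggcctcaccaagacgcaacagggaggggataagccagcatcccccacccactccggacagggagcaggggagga
Counted with 0 at the annotated start, the Icam1 window held GGAAATTCC at -153 to -145, CCGGAA on either strand 3 times between -86 and -34, and TATAAA at 13 to 18. These positions hold for the RefSeq start only. The GENCODE start of Icam1, chr9:21015985, lies near the end of this window, and all of these matches are upstream of it. Of 32851 promoter windows of this length, 0.317% held GGAAATTCC, 14.9% CCGGAA, 13.6% TATAAA and 35.4% AGGAAG, each searched on both strands. The Emcn window held AGGAAG at 2 places and the Cd34 window at 1, and neither held any of the other motifs. The Icam1 window was 64.7% G and C, against 41.0% for Emcn, 50% for Cd34, 58.3%, 59.0% and 67.3% for the 3 windows of Egfl7, which rose, and a median of 52.7% over all windows. Of the Egfl7 windows, 2 held AGGAAG and the third none of the motifs. These motifs were chosen after the values were seen, and a match describes the letters and not binding.

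Both sialomucins, whose heavily glycosylated stalks cover the luminal face of vessels, were higher in QZ1-hi. Emcn (Entrez Gene 59308, chr3:137341067-137432185, plus strand), typical of capillaries and veins, was at 38.1, 18.2, 43.7 and 14.5 CPM in QZ1-hi and at 2.12, 3.50, 5.14 and 0.900 CPM in QZ1-lo. QZ1-lo replicate 4, the lowest, rested on 22 counts. Its log2 fold change was 3.29 ± 0.51 (SE, edgeR adjusted p = 0.00119). Cd34 (Entrez Gene 12490, chr1:194938819-194961279, plus strand), which marks vessels, blood progenitors and adventitial fibroblasts, was at 124, 131, 202 and 77.8 CPM in QZ1-hi and at 7.72, 19.8, 20.8 and 2.99 CPM in QZ1-lo. The populations did not overlap although QZ1-lo libraries spread with an SD of 69.0% of their mean, and the log2 fold change was 3.38 ± 0.53 (SE, edgeR adjusted p = 0.00128).

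Genes of other stromal cells that can carry Cd34 or Vcam1 rose as well. Of 9 fibroblast markers, 7 were higher (Col1a1, Col1a2, Col3a1, Dcn, Lum, Pdgfra and Pi16), and Tcf21 and Npnt were not called. With the replicate block Tcf21 was called too, at 3.72 (SE 0.87). The fibroblast mean log2 CPM was 6.04 to 7.30 in QZ1-hi and 1.76 to 4.47 in QZ1-lo, with QZ1-lo replicates 2 and 3, the libraries highest for Cd34, also highest here. The endothelial marker mean was highest in the same QZ1-lo replicates, at 2.60 and 4.06, so this order does not set fibroblasts apart from endothelium. All 5 mesothelial markers (Msln, Upk3b, Wt1, Lrrn4 and Upk1b) were higher in edgeR, with a mean log2 CPM of 5.59 in QZ1-hi replicate 2 and 2.87 to 3.65 in the other QZ1-hi libraries. Only 2 of these 5 had no overlap between the populations in CPM. Msln was not called by limma (adjusted p = 0.0726), and DESeq2 gave no adjusted p for Upk3b. Of 9 pericyte and smooth muscle markers, 5 were higher (Pdgfrb, Kcnj8, Des, Myh11 and Tagln), and with the replicate block Cspg4 (1.22, SE 0.38) and Acta2 (0.76, SE 0.22) were called as well. Of 6 lymphatic endothelial markers, 5 were higher (Lyve1, Flt4, Reln, Ccl21a and Mmrn1), and Prox1 was not called in edgeR (log2 fold change 1.76, SE 0.66, adjusted p = 0.0946). Prox1 was called higher by DESeq2 (adjusted p = 0.0340), by limma (0.0216) and by edgeR with the replicate block (0.0158). The part of these cell types in the values of Cd34 and Vcam1 was not tested.

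Egfl7 (Entrez Gene 353156, chr2:26580014-26593120, plus strand) encodes a protein that endothelial cells secrete into their matrix. It was at 167, 67.9, 173 and 78.5 CPM in QZ1-hi and at 9.12, 7.85, 28.3 and 4.87 CPM in QZ1-lo. The log2 fold change was 3.27 ± 0.53 (SE, edgeR adjusted p = 0.00160), and it was 4.06 without QZ1-lo replicate 3, the highest QZ1-lo library. Exons of Egfl7 overlap Agpat2 on the opposite strand, and 4.94% of its stretches of 50 bases also occur in the overlapping models Gm20532 and Mir126a. An Egfl7 intron is the source of miR-126, whose mature 3p strand is shown, with its seed (bases 2 to 8) in capitals, because the count table has its own row for Mir126a (chr2:26591402-26591423 for the mature strand, RefSeq, GRCm38.p6).
mmu-miR-126a-3p: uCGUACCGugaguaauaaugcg
The Mir126a row, named after its values were seen, held 100, 48, 33 and 49 counts in QZ1-hi and 11, 2, 37 and 0 in QZ1-lo. The CPM did not overlap, at 1.91 to 4.24 in QZ1-hi and 0 to 1.34 in QZ1-lo, but the log2 fold change of 2.68 (SE 0.95) did not pass the test (adjusted p = 0.0762, edgeR). With the replicate block it was 3.61 (SE 1.00) and did pass (edgeR adjusted p = 0.0191). These libraries were made from total RNA, and counts on this row are not a measure of the mature strand.

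Cd93 (Entrez Gene 17064, chr2:148436640-148443563, minus strand), a transmembrane receptor with a lectin-like domain that binds multimerin 2, was at 356, 209, 516 and 240 CPM in QZ1-hi and at 48.9, 53.6, 86.7 and 63.1 CPM in QZ1-lo. It had the highest QZ1-lo level of the 9 genes that rose and a narrow QZ1-lo spread, with an SD of 26.6% of the mean against 85.0% for Pecam1. The log2 fold change was 2.39 ± 0.29 (SE, edgeR adjusted p = 0.000413), a 5.24-fold difference. QZ1-lo replicate 3, highest for Cd93, had the highest endothelial marker mean (4.06 log2 CPM) and the lowest leukocyte marker mean (4.78) of the QZ1-lo libraries. Replicate 4, next for Cd93, had the lowest endothelial mean (2.03) and the highest leukocyte mean (5.37). The part of leukocyte RNA in the Cd93 values was not tested.

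Per kilobase of exon (GENCODE M21, with the exons of all transcripts of a gene merged), the genes stood in a different order in the 2 populations. In QZ1-hi, Cdh5 had the highest level at 84.1 ± 40.2 CPM per kilobase (SD, n = 4), followed by Icam1 at 53.6 ± 11.3, Cd93 at 49.5 ± 20.9 and Pecam1 at 47.1 ± 19.5. Egfl7 (34.0), Icam2 (27.9), Esam (23.6) and Cd34 (18.3) came next in mean CPM per kilobase, then Emcn (5.29) and Vcam1 (3.48). The ranges of neighbors in this order overlapped over the 4 libraries except between Cd34 and Emcn, but Cdh5 was above Icam1 within each of the 4 libraries. In QZ1-lo, Icam1 was first at 109.7 ± 14.8 CPM per kilobase (SD, n = 4), with no overlap with Cd93 in second place at 9.44 ± 2.52. All later neighbors overlapped in range, down to Vcam1 at 1.10 and Emcn at 0.539. The order depends on these merged lengths. In QZ1-hi, mean CPM before division by length was 30.8 for Vcam1 (8870 bases) and 28.6 for Emcn (5409 bases).

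Since endothelial markers as a whole were higher in QZ1-hi, each gene was also set against them within every library, as its log2 CPM minus the mean log2 CPM of the 12 endothelial markers, a measure that, apart from the prior count in the logarithm, does not depend on how libraries are scaled to each other. Pecam1, Cdh5, Emcn, Cd34 and Egfl7 differed little between the populations on this scale, by -0.09, 0.10, -0.22, 0.08 and -0.11, with two-sided exact permutation p-values from 0.371 to 0.857. Cdh5, for example, was 2.10, 1.95, 2.12 and 1.86 above the markers in QZ1-hi and 2.01, 2.02, 1.94 and 1.67 above them in QZ1-lo. Fibroblast and lymphatic markers had median log2 fold changes of 3.34 and 3.93, beside 3.43 for the endothelial markers. A small difference on this scale therefore cannot tell RNA of these cell types apart, and the source of the RNA of these 5 genes was not tested. The remaining 5 genes were lower relative to the markers in every QZ1-hi library than in any QZ1-lo library. The difference was -4.63 for Icam1, -1.89 for Vcam1, -1.88 for Esam, -1.25 for Cd93 and -0.61 for Icam2 (exact permutation test, two-sided p = 0.0286 each, the smallest that 4 against 4 allows, unadjusted over 10 comparisons). Esam was at -0.27, -0.14, -0.46 and -0.39 in QZ1-hi and at 1.81, 1.45, 0.79 and 2.23 in QZ1-lo on this scale. Vcam1 was at -1.62, -1.14, -1.89 and -0.91 in QZ1-hi and at 0.46, 1.13, -0.75 and 1.17 in QZ1-lo. With Tek, Tie1 and Kdr alone as the reference, the value for Icam2 was -0.44 and no longer passed (exact permutation test, two-sided p = 0.0857). When any of the 4 QZ1-hi libraries was left out, only Icam1 and Esam of these 5 genes passed, and Icam2, Vcam1 and Cd93 each had an exact permutation p of 0.0571. Their differences stayed near those with all libraries, at -0.68 to -0.48 for Icam2, -2.05 to -1.72 for Vcam1 and -1.28 to -1.21 for Cd93.

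**Figure D3:**
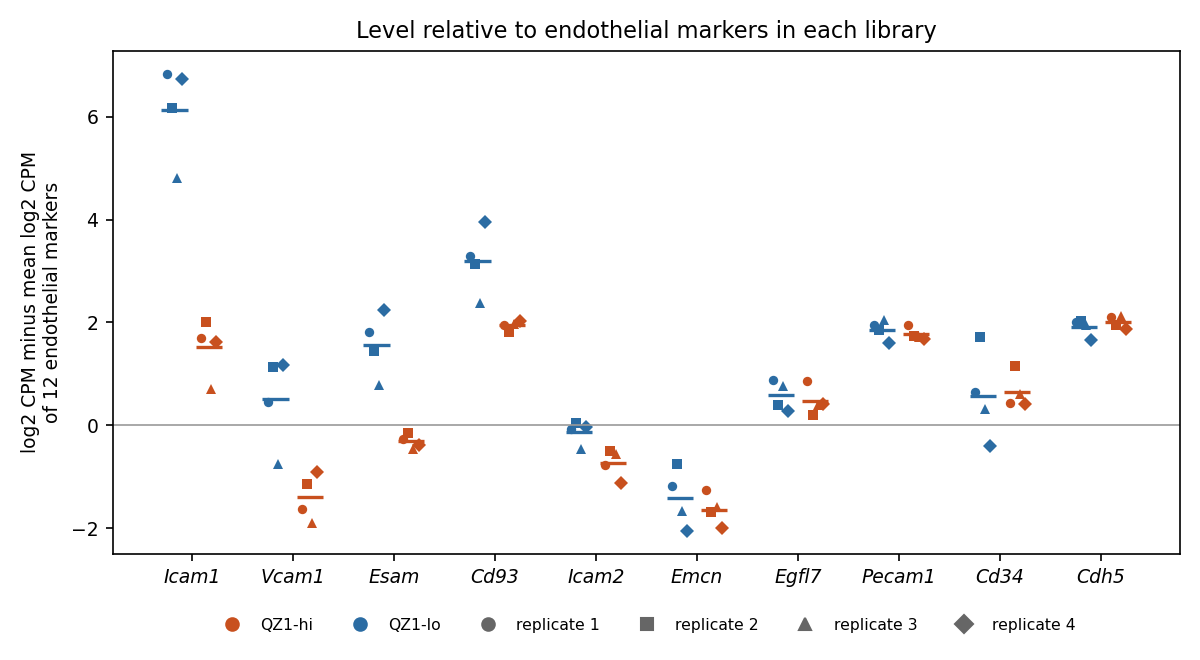
Log2 CPM of each gene minus the mean log2 CPM of 12 endothelial markers in the same library, for 4 QZ1-hi (orange) and 4 QZ1-lo (blue) libraries, with bars at the group means and genes ordered by the difference. The populations are separate for Icam1, Vcam1, Esam, Cd93 and Icam2 (differences of -4.63 to -0.61) and overlap for the other 5 genes.

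Within a population, most of the genes rose and fell together from library to library. QZ1-hi replicate 3 was the highest of its population for 9 of the 10 genes and QZ1-lo replicate 3 for 8 of 10, while QZ1-hi replicate 4 and QZ1-lo replicate 4 were each the lowest for 7. The 12 endothelial markers followed, with a mean log2 CPM of 4.06 in QZ1-lo replicate 3 against 2.03 to 2.60 in the other QZ1-lo libraries. Icam1 departed from this, being highest in replicate 1 of both populations, and Vcam1 was highest among QZ1-lo libraries in replicate 2. Across the 8 libraries, Pearson's r of log2 CPM between Icam1 and each of the other 9 genes lay between -0.94 (Vcam1) and -0.78 (Emcn), values that reflect the 2 populations and shared libraries. The genes whose log2 CPM was most like the mean of the 10 over the 8 libraries were Lifr, Gpihbp1, Sema3g, Pxdn, Mmrn2, Kdr, Slc9a3r2, Rapgef3, Tspan18 and Tie1, with r from 0.9947 to 0.9987. They were picked by r over both populations, so their higher level in QZ1-hi followed from that choice. Of these, Gpihbp1, the capillary anchor of lipoprotein lipase, went from 4.97 ± 3.08 to 54.9 ± 25.5 CPM (SD, n = 4 each) and Lifr, a cytokine receptor chain, from 19.4 ± 6.38 to 73.5 ± 22.9 CPM (SD, n = 4 each).

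The partners of these molecules at cell junctions did not share a direction. Of 18 other junction genes, 4 were higher, 5 lower and 9 not called in edgeR, with a median log2 fold change of -0.04. Among all genes tested, 9.88% were called higher and 8.21% lower. Higher were Cldn5, the claudin of endothelial tight junctions (3.49, SE 0.64), Jam2 (3.08, SE 0.45), Jam3 (2.69, SE 0.83) and Cdh13 (1.68, SE 0.43). Jam2 was at 26.0 to 52.6 CPM in QZ1-hi and 1.47 to 9.01 CPM in QZ1-lo, without overlap. Lower were Ocln, a tight junction protein of epithelia and vessels (-1.56, SE 0.17), Nectin2 (-1.07, SE 0.18), Nectin3 (-0.61, SE 0.16), F11r, which encodes JAM-A (-0.57, SE 0.12), and Afdn, the linker of nectins to actin (-0.46, SE 0.11). Among those not called were the catenins that tie cadherins to actin, with Ctnnb1 at 343 to 379 CPM in QZ1-hi and 373 to 408 CPM in QZ1-lo (log2 fold change -0.08, SE 0.10, edgeR adjusted p = 0.662). With the replicate block, Ctnna1 was called lower (-0.37, SE 0.10) and Mcam higher (0.74, SE 0.15). Cdh1, the epithelial cadherin and counterpart of Cdh5, fell as well, by 1.34 on the log2 scale (SE 0.18). The call of Jam3 rested on mean levels of 4.34 and 0.667 CPM and was lost in limma (adjusted p = 0.123).

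Of 13 leukocyte adhesion partners, 12 were tested, 1 was higher, 1 lower and 10 were not called, shares near the 9.88% and 8.21% of all genes tested. Selp, the P-selectin of endothelium and platelets, was at 9.36, 1.88, 8.73 and 3.22 CPM in QZ1-hi and at 0.507, 0.407, 0.941 and 0.614 CPM in QZ1-lo, giving a log2 fold change of 3.22 ± 0.57 (SE, edgeR adjusted p = 0.00251). Sele, the cytokine-induced E-selectin, was at 2.33, 0.296, 7.75 and 3.28 CPM in QZ1-hi and at 0.805, 0, 1.19 and 0.0819 CPM in QZ1-lo. The populations overlapped for Sele, and its log2 fold change of 2.68 (SE 1.09) did not pass in edgeR (adjusted p = 0.126) or limma (0.220) but did in DESeq2 (0.0409) and in edgeR with the replicate block (0.00930). Alcam was lower in QZ1-hi, by a log2 fold change of -0.82 (SE 0.14). The integrin genes Itga4, Itgb1, Itgb7, Itgal, Itgb2 and Itgax, whose products bind the ICAM and VCAM ligands, had log2 fold changes from -0.21 to 0.40 and were not called. With the replicate block Itgax was called higher (0.39, SE 0.11). Madcam1, the gut addressin, had no count in any library.

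Of 9 sialomucin and lectin relatives, 7 were tested, and 5 of them were higher, 0 lower and 2 not called, beside 9.88% higher among all genes tested. Glycam1 had no count, and Egfl8 had too few to test. Podxl (podocalyxin), a CD34-family sialomucin, averaged 285 CPM (SD 112) over the QZ1-hi libraries and 48.0 CPM (SD 19.8) over the QZ1-lo libraries, and rose by 2.57 on the log2 scale (SE 0.34). The relatives of Cd93 rose by 3.04 (Thbd, SE 0.38), 3.50 (Clec14a, SE 0.57) and 3.91 (Cd248, SE 0.73) on the log2 scale, and Mmrn2, the ligand of Cd93, by 3.31 (SE 0.52). Clec14a is also in the endothelial list, and Cd248 is known from pericytes and fibroblasts. Podxl2 and Cd164 were not called, with values of 1.23 (SE 0.94) and 0.07 (SE 0.13) on the log2 scale. Of the antigens stained for the sort, Eng and Ly6a were higher and Epcam was lower, whereas Ptprc, Itgam and Cd44 were not called (Cd44 was called lower with the replicate block, at -0.37, SE 0.12).

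**Figure D4:**
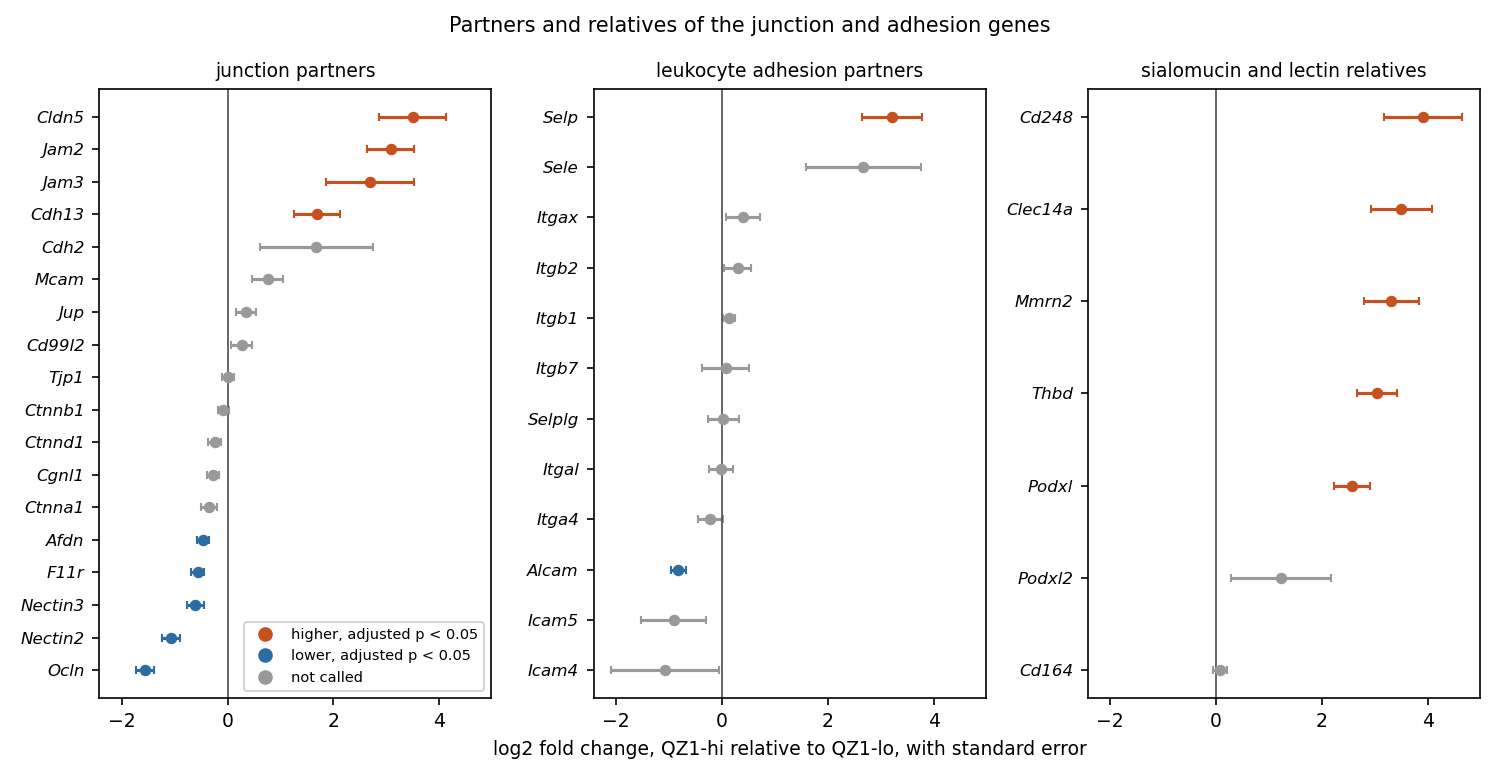
Log2 fold change (point) and SE (bar) of the tested junction partners, leukocyte adhesion partners and sialomucin and lectin relatives, colored by the edgeR call at an adjusted p under 0.05. The 18 junction partners spread from -1.56 to 3.49, while 5 of the 7 sialomucin and lectin relatives lie at 2.57 or above.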

How the data were processed

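Bulk RNA-seq of sorted lung cells was analysed in 8 libraries, 4 QZ1-hi and 4 QZ1-lo. The deposited values are raw gene counts that the authors obtained with Rsubread from stranded total RNA libraries, with mm10 named in the submitters' processing notes. The aligner, annotation version and strand setting are not given in the sources used here. Symbols were matched to 25293 of 27179 Entrez identifiers, and 1886 had none. The comparison of QZ1-hi with QZ1-lo was run in edgeR 4.0.16 under R 4.3.3 (TMM, filterByExpr with a minimum count of 10 and a minimum total of 15, quasi-likelihood test, Benjamini-Hochberg threshold 0.05). The SE was computed as the absolute log2 fold change over the square root of F. Log2 CPM used a prior count of 2. Relative levels were compared by exact permutation over 70 assignments. The alternatives were DESeq2 1.42.0, limma 3.58.1 (voom with sample weights), 3 other scalings, 2 other filters, robust shrinkage, leaving out each library, and a stricter threshold of 0.01. Exonic lengths, overlaps and shared stretches came from GENCODE M21. A replicate block on neighboring library numbers was added after the data were seen. Deviations from the population means over 15583 genes correlated at 0.144 to 0.235 within the 4 neighboring pairs and at -0.16 to 0.0182 between other QZ1-hi and QZ1-lo libraries. On simulated counts for 15583 genes at a common dispersion of 0.113, 200 genes had log2 changes of 2 or 3 in either direction. Of these edgeR called 195, and it called 4 unchanged genes. Smaller changes, such as those of Esam, Vcam1 and Icam1, and variation shared within neighboring pairs were not simulated. Every simulated gene had the same dispersion, so spreads particular to a gene, such as Pecam1 in QZ1-lo (SD 85.0% of the mean), were not simulated either. The members and lists were chosen with earlier results of these data known. Genes named are the 10 members, genes of the fixed lists, and the 10 genes most like the members' mean, with Mir126a as the exception. Some results of the platelet and red cell list are not reported here.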

Additional observations from a re-analysis of the deposited data

Results flagged for a closer look

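Of 20 sets of 4 libraries (10 genes in each population), 1 held a library far from the others by Dixon's criterion, about as many as chance gives at 1 in 20. Pecam1 was at 68.9 CPM in QZ1-lo replicate 3, while the remaining 3 libraries of that population lay between 12.2 and 21.7 CPM. That library also had the highest endothelial marker mean of the QZ1-lo libraries, 4.06 log2 CPM, as QZ1-hi replicate 3, its neighbor in library number, had of the QZ1-hi libraries, 7.05 log2 CPM, and without it the log2 fold change of Pecam1 was 4.05.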

How the results depend on the processing

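Each of the 10 genes kept its direction and its call under all 18 alternatives, so that 9 were called higher and 1 lower each time. Over these, the log2 fold change ranged from 2.85 to 4.05 for Pecam1, 3.13 to 4.20 for Cdh5, 2.86 to 4.06 for Egfl7, 1.31 to 1.94 for Esam and 1.24 to 1.85 for Vcam1. Over all genes, library size only gave 882 genes higher and 2509 lower, against 1540 and 1280 with TMM, and an adjusted p under 0.01 left 1567 genes, 902 higher and 665 lower. Relative to endothelial markers, 5 genes differed. With any QZ1-hi library left out 2 genes differed, and with any QZ1-lo library left out 5 did, although either leaves 3 against 4 libraries. For all 5 genes the QZ1-hi libraries that remained still lay below every QZ1-lo library, so the lower count does not reflect a lost separation. The small relative differences changed sign for Pecam1 (0.0839) and Egfl7 (0.0598) with Tek, Tie1 and Kdr as the reference, and for Cd34 without QZ1-hi replicate 2 (-0.08) or QZ1-lo replicate 4 (-0.24, within a range up to 0.47 over the libraries left out), and the cause was not tested. The mouse behind each library is not stated, but each of the 8 libraries correlated best with its neighbor in library number, a hint from the data and not the design. With these pairs as a replicate block, 3640 genes were called, 2004 higher and 1636 lower, again 9 of the 10 genes were higher and Icam1 lower, and the log2 fold changes were between 1.70 and 3.68 for those 9 and -1.05 for Icam1. For relative levels, 4 pairs cannot give a two-sided exact p below 0.125, so no paired test of them was made. Depth limited only the lowest values, such as Emcn in QZ1-lo and Sele, Icam4 and Mir126a.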
